A study of Mus musculus with 30 samples.

Results

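The sites described here were 491 of the 38526 ATAC-seq peaks of a mouse natural killer (NK) cell atlas, chosen because their accessibility was higher with prostaglandin E2 (PGE2) in stimulated wild-type cells, and less so or not at all in resting ones. A peak was taken when 3 differences between group means of log2(normalised read count + 1) in wild-type (WT) libraries held together. PGE2 minus untreated had to be at least 0.8 in stimulated cells, the same difference had to be under 0.4 in resting cells, and stimulated minus resting had to lie above -1 without PGE2. The PGE2 threshold alone was met by 2405 peaks, of which 1310 failed the resting threshold and another 604 were lower by 1 or more with stimulation. A working name for these sites, sites that PGE2 opens only during stimulation, did not describe most of them. In WT cells 480 of the 491 (97.8%) were less accessible after stimulation than at rest, where 51.8% of all tested peaks were. With PGE2 plus stimulation, 386 (78.6%, with 65.7% of all peaks so placed) lay within 0.4 of their untreated resting level. The PGE2 and stimulation thresholds together limit how far below rest a site can then lie, and the lowest was at -0.19. The 78.6% thus follows in part from the rule and is given as a description. The sites are therefore called by the rule, as sites higher with PGE2 in stimulated WT cells.

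ATAC-seq reads out open chromatin by letting a transposase cut accessible DNA. The 30 libraries came from splenic NK cells of 2 genotypes, C57BL/6J mice (WT) and GzmbCre Ptger2-/- Ptger4 fl/fl mice (knockout, KO), which lack the PGE2 receptor EP2 (Ptger2) and lose the receptor EP4 (Ptger4) in cells where the granzyme B promoter has driven Cre. Before treatment all cells had been expanded over 5 days with a low dose each of IL-2 and the complex IL15:IL15Ra, so the resting groups were cytokine-cultured cells as well. For both genotypes some wells got PGE2 (100 ng/ml, 5 h in all) and some did not, and either kind was kept resting or had its NK1.1 receptor, which activates NK cells, engaged over the final 4 h, so that 1 h of PGE2 came first. The 8 groups held 4 libraries each, except PGE2 at rest in WT and untreated rest in KO with 3 each. The labels do not give the age of the animals or say whether replicates came from separate mice, so p-values measure the spread between these libraries, which may be technical.

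PGE2 is a lipid mediator made by many tumours and inflamed tissues, and its receptors EP2 and EP4 couple to the stimulatory G protein that raises cyclic AMP (cAMP), which activates protein kinase A and the CREB family of transcription factors. In NK cells this pathway is known to restrain cytotoxicity and cytokine production. NK1.1 signals through adaptor proteins with activating motifs and switches on factors of the NFAT, NF-kB and AP-1 families, which open and close chromatin at many sites within hours.

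Most of the 491 sites lay away from gene starts. For 10 of them, at least 150 of the 300 bases of a RefSeq promoter window (GRCm38.p6, the assembly that the deposited coordinates name as mm10) fell inside the peak, which gave 12 windows. The windows of 3 such sites, chosen after their values were seen, are shown because they let the sequence under a site of this kind be read. The first is the promoter of Jakmip1, which codes for a protein that binds Janus kinases and microtubules (chr5:37050607-37050906, plus strand). The next is a start inside Ccm2, which codes for a scaffold protein of the cerebral cavernous malformation complex (chr11:6559933-6560232, plus strand). The last is a promoter of Ctla2a, which codes for a cysteine protease inhibitor first found in activated T cells (chr13:60936517-60936816, minus strand), and the deposited table names that peak Gm49391. Capitals mark matches to the AP-1 letters TGANTCA, the RUNX letters TGTGGT and the STAT letters TTCNNNGAA on either strand.
Jakmip1: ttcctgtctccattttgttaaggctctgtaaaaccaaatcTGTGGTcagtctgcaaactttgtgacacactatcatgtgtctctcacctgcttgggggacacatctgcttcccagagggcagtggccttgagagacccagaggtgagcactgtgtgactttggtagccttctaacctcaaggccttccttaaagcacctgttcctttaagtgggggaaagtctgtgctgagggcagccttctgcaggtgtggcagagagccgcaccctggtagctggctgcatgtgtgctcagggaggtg
Ccm2: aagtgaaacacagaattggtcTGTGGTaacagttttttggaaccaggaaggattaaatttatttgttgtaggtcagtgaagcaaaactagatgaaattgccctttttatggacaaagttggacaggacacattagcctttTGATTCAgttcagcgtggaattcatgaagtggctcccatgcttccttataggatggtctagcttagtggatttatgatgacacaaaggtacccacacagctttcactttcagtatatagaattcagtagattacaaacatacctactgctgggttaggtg
Ctla2a: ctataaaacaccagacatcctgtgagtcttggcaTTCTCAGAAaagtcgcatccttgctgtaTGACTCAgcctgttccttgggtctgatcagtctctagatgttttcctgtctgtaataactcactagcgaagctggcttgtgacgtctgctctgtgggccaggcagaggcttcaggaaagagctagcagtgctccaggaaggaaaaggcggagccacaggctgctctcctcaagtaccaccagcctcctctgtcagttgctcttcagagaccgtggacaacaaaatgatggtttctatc

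Counted once per site, because overlapping windows hold the same letters, the AP-1 letters stood at 2 of the 10 sites (20%), against 5.77% of the 9722 peaks with such a window and 7.81% of all 32851 windows. The STAT letters stood at 2 (20%, against 7.52% and 8.30%), and the RUNX letters at 3 (30%, against 15% and 16.8%). Other letters were searched too, and are given against the peaks with a window. The IRF letters stood at 2 (20%, against 3.41%) and the NFAT letters at 3 (30%, against 18.3%). The EGR letters stood at 1 (10%, against 20.4%), as did the ETS (against 10.6%) and E-box letters (against 11.9%). The NBRE, NF-kB, T-box, CEBP-CRE, KLF, TCF/LEF and CTCF letters were at none (against 0.987% to 4.43%). The cAMP response element TGACGTCA was at none of the 10, and it was at 3.55% of the peaks with a window. Its looser form TGACGNNA was also at none, against 12.7%. The matches are a description of letters at 10 sites. At the Jakmip1 promoter, the 4 untreated resting WT libraries had normalised read counts of 1445, 1547, 1326 and 1287, and the 4 stimulated ones without PGE2 had 722, 846, 691 and 654. With PGE2 the stimulated WT libraries had 1379, 1436, 1351 and 1266, so that they overlapped the resting range. In stimulated KO libraries the counts were 743, 654, 496 and 543 without PGE2 and 822, 749, 502 and 593 with it, and these groups overlapped. The Ccm2 site had 879.7 to 925 at rest, 457 to 567 with NK1.1 and 818 to 1016 with both in WT. In stimulated KO cells it had 431 to 478 without and 479.7 to 623 with PGE2, and unlike at Jakmip1 these ranges did not overlap (difference 0.27, 95% interval 0.072 to 0.47, not called by limma after adjustment). The Ctla2a site was at 350.5 to 402, 224 to 284 and 431 to 486 in those WT groups, and at 212 to 289 and 250.3 to 311 in stimulated KO cells without and with PGE2, which overlapped.

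The libraries held between 8444350 and 20153816 reads in peaks. The targeted genes checked the genotype labels, since the Ptger2 promoter had 559.8 to 1109 normalised reads in WT libraries and 83.61 to 247.3 in KO libraries, and a Ptger4 exon peak had 433.5 to 685.1 and 56.24 to 152.3. All 8 NK marker genes looked at, among them Ncr1, Eomes and Prf1, had promoter peaks, with a summed count of 7774 to 11480 per library. No promoter peak was listed for 7 T cell and 5 B cell markers, while 1 of 5 myeloid markers (Cd14) and 2 of 5 markers of other innate lymphoid cells (Kit and Il17rb) had one. In bulk samples, fewer cells with an open site and less opening per cell cannot be told apart.

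Across the 491 sites, the median PGE2 difference in stimulated WT cells was 0.90 on the log2 scale and the largest was 1.46, values that the rule required and that are given as a description. The libraries of the stimulated WT groups did not overlap at 459 of the 491 (93.5%), with 19.0% of all tested peaks so placed, and nothing is read from this because the rule used that contrast. At rest the median PGE2 difference was 0.22, and 437 sites (89.0%) were above 0 against 48.7% of all peaks, which is given as a description because the rule limited that difference as well. Stimulation without PGE2 had a median difference of -0.78, with 435 sites (88.6%) lower by more than 0.4 against 22.2% of all peaks. Stimulation in the presence of PGE2 had a median difference of 0.0006. The PGE2 and stimulation differences share the untreated stimulated WT libraries, so they are not independent of each other. Under PGE2 plus NK1.1, 105 sites (21.4%) were at least 0.4 above untreated rest, against 23.1% of all peaks. Their mean in that group was above each of the other 3 WT group means at 231 sites (47.0%, against 14.1% of all peaks) and at least 0.8 above each at 9 (1.83%, against 0.112%), and nothing is read from these because the rule used the PGE2 difference. Of the markers of other innate lymphoid cells, Il1rl1 and Il23r had no promoter peak, and the summed count of Kit and Il17rb moved with the groups. It was 653.1 to 812.9 at rest, 477.2 to 611.1 with NK1.1, 735.6 to 871.0 with PGE2 at rest and 559.9 to 749.6 with both in WT libraries. In KO libraries it was 579.5 to 734.2, 519.7 to 622.5, 579.4 to 724.9 and 536.4 to 627.9 in the same order, and the part of such cells in the sites' differences was not tested.

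**Figure D1:**
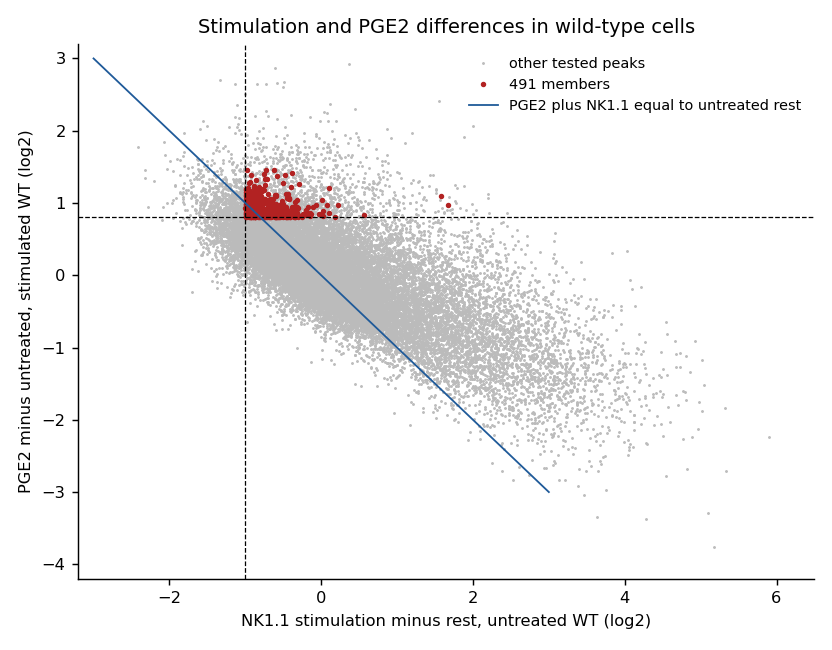
NK1.1 stimulation minus rest in untreated WT cells (x axis, log2) against PGE2 minus untreated in stimulated WT cells (y axis, log2), with 1 point per tested peak, the 491 sites in red and the rule's thresholds as dashed lines. Most red points sit left of 0 and near or above the blue line, on which PGE2 plus NK1.1 equals untreated rest, and 11 lie to the right of 0. The axes share the untreated stimulated WT libraries, and the thresholds keep the red points from lying far below the blue line.

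The values nearest each threshold are given as a description. At the PGE2 threshold, the sites named Gm15972 and Msh3 were taken at 0.80045 and 0.80015, and peaks named Txn2 and 1600014C10Rik were left out at 0.79995 and 0.79935. At the resting threshold, the Cbln3 and Cerk sites were taken at 0.398 and 0.399, while the Klf5 peak was left out at 0.402. At the stimulation threshold, the Psma1 and Ubtd2 sites were taken at -0.998 and -0.997, and the Serinc5 and Sorl1 peaks were left out at -1.0016 and -1.0021. The 604 peaks past that last threshold had a median PGE2 difference of 0.99 in stimulated WT cells. With PGE2 plus NK1.1 their median was 0.27 below untreated rest (-0.27), where that of the 491 sites was 0.19 above it. The stimulation threshold itself separates these sets, so this contrast follows in part from the rule and nothing is read from it.

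The choice was repeated 4 times, each time without the WT libraries of 1 replicate number, and the PGE2 difference was then read in the left-out stimulated pair. Without number 1 the rule took 457 peaks, whose median difference in the left-out pair was 0.91, and without number 2 it took 560 with a median of 0.74. Without number 3 it took 476 with a median of 0.88, and without number 4 it took 588 with a median of 0.77. The difference was above 0 at 98.2%, 94.5%, 97.3% and 97.3% of these peaks, where 48.6% to 49.0% of all peaks were above 0. The left-out pair reached the 0.8 of the rule at 62.8%, 41.4%, 57.4% and 46.8% of them. The stimulation difference in the left-out libraries was -0.63, -0.56, -0.74 and -0.67 at the median. These are descriptions with 1 value per left-out number.

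In KO cells, whose libraries the rule did not use, PGE2 changed none of the 491 sites past the threshold, either in stimulated or in resting cells. In stimulated KO cells limma called 0 of 491 at an adjusted p under 0.05, with 0.0% of all tested peaks called, and 59 (12%) had an unadjusted p under 0.05 against 4.46% of all peaks. By edgeR 0 of the sites were called, with 0 over all peaks, and 60 (12.2%) had an unadjusted p under 0.05 against 3.59% of all peaks. By DESeq2 0 were called, with 1 over all peaks, and 57 (11.6%) were under 0.05 unadjusted against 3.63%. The median difference was 0.12, against -0.0086 over all peaks, and 381 sites (77.6%) were above 0 against 47.3% of all peaks. The groups did not overlap, with PGE2 higher, at 13 sites (2.65%), with 0.831% of all tested peaks so placed. The upper bound of the 95% interval was under 0.8 at 453 of the 491. The share over all tested peaks was not computed, and 95% of those peaks had a difference of at most 0.28. Nothing is therefore read from the count, which is no comparison of the genotypes. The 1 site with a difference of 0.8 or more in stimulated KO cells was named Col4a1, a collagen gene, and it is singled out after its values were seen. Its stimulated KO counts were 10.3, 16.6, 19.5 and 20.2 without PGE2 and 31.3, 30.1, 23.6 and 35.2 with it. Its difference was 0.84 ± 0.19 (SE; limma, adjusted p = 0.55). At rest in KO cells limma called 0 of 491 with 0.0% of all peaks called, and edgeR and DESeq2 called 0. Unadjusted p-values under 0.05 were found at 20 sites by limma (4.07%, against 4.02% of all peaks), 22 by edgeR (4.48%, against 3.23%) and 23 by DESeq2 (4.68%, against 3.29%), which is near the share over all peaks. The median resting difference was 0.059, against 0.0071 over all peaks. Whether WT and KO cells differed in their response was not tested at these sites, because they were chosen on the WT values.

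**Figure D2:**
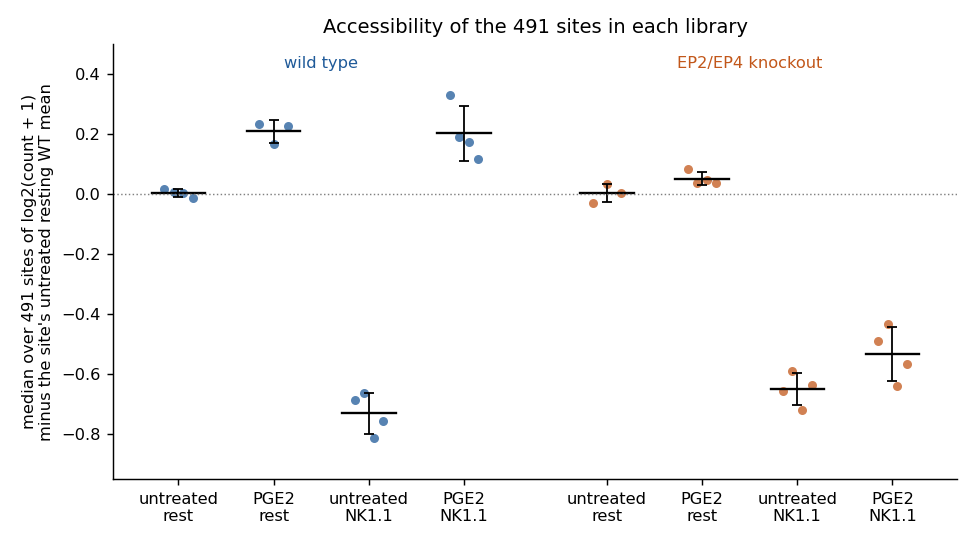
Median over the 491 sites of log2(normalised read count + 1) minus each site's untreated resting WT mean (y axis), 1 point per library in 8 groups, with group means as lines and SD as bars. NK1.1 alone put WT libraries at -0.813 to -0.662 and KO libraries at -0.719 to -0.588. With PGE2 added, WT libraries sat at 0.116 to 0.331 and KO libraries at -0.639 to -0.432.

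Stimulation lowered most of the 491 sites in KO cells, with or without PGE2. Without PGE2, limma called 366 lower (74.5%) with 26.2% of all tested peaks called lower, and 5 higher (1.02%) with 27.8% of all peaks called higher. The median difference was -0.68 against -0.028 over all peaks. The KO groups did not overlap, with the stimulated one lower, at 339 sites (69.0%), with 25.0% of all peaks so placed. With PGE2 present, 351 were lower (71.5%) with 26.7% of all peaks called lower, and 4 were higher (0.815%) with 27.6% called higher, at a median of -0.61. Both comparisons called 313 of the sites lower (63.7%), with 21.3% of all tested peaks called lower in both, and they use different libraries. Each of the 366 sites lower in untreated KO cells was also lower in WT cells by its mean. Since 97.8% of all 491 sites were lower in WT cells, whose values the rule used, nothing is read from this. The PGE2 comparison in stimulated KO cells shares its libraries with these stimulation comparisons.

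**Figure D3:**
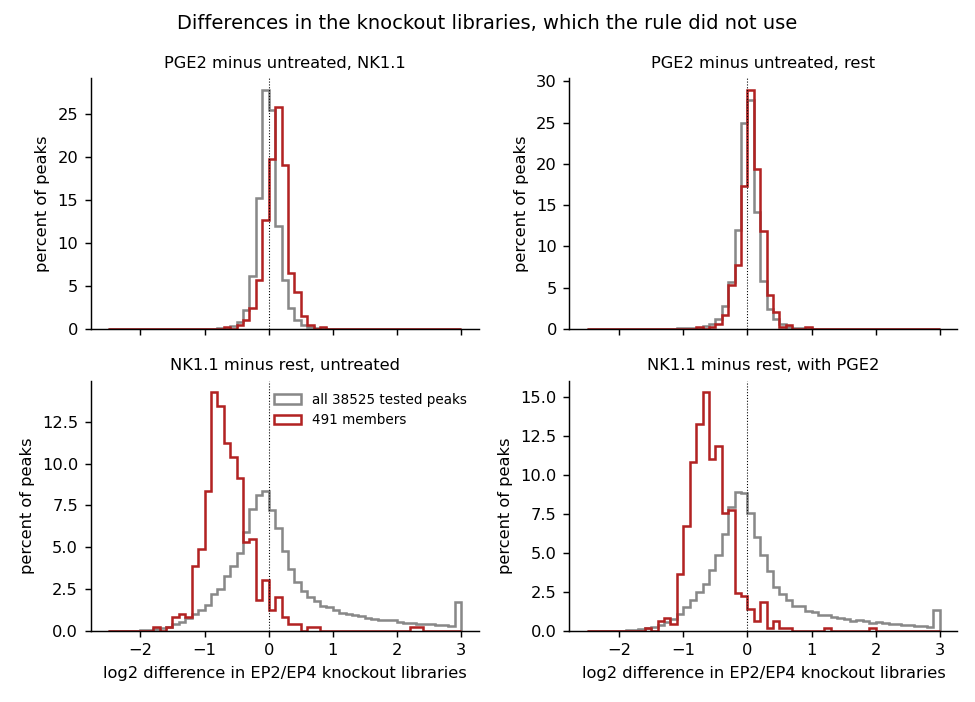
Distribution of log2 differences in the KO libraries (x axis) as a percentage of peaks in bins (y axis), for all 38525 tested peaks in grey and the 491 sites in red, with values beyond the plotted range placed in the end bins. In the PGE2 panels the sites have medians of 0.12 (NK1.1) and 0.059 (rest), against -0.0086 and 0.0071 for all tested peaks. With NK1.1, 77.6% of the sites lie above 0 there, against 47.3% of all peaks. The stimulation panels put the sites at medians of -0.68 and -0.61.

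The sites named below carry the gene that the deposited table assigns to the peak, which does not show that the site acts on that gene. Peaks of the same gene did not all go the same way. The PGE2 difference in stimulated WT cells was positive at 16 of 18 Pde4b, 14 of 17 Cxcr4 and 24 of 36 Runx1 peaks. It was positive at 6 of 8 Foxo1 and 2 of 3 Cd96 peaks. In untreated KO cells NK1.1 lowered 7 and raised 7 of the Pde4b peaks (limma). It lowered 4 and raised 6 of the Cxcr4 peaks, and lowered 2 and raised 3 of the Foxo1 peaks. Among the largest PGE2 differences in stimulated WT cells was a distal site named Gm20750 (chr3:52881796-52882906). Its WT counts were 236, 208, 213 and 199 at untreated rest and 142, 118, 153 and 147 with NK1.1, and they were 267, 239 and 232 with PGE2 at rest and 439, 426, 357 and 330.0 with PGE2 plus NK1.1. The PGE2 plus NK1.1 libraries lay above all other WT libraries at this site, which was named for its large WT PGE2 difference, so this is a description. In stimulated KO cells the counts were 125, 112, 159 and 148 without and 159, 149, 149 and 161 with PGE2, which overlapped. NK1.1 lowered the site in untreated KO cells, at a difference of -0.66 ± 0.11 (log2, SE; limma, adjusted p = 1.98e-05).

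A distal site named Pmepa1, after an inhibitor of TGF-beta signalling that TGF-beta itself induces (chr2:173292689-173293794), had 139, 166, 172 and 177 at rest in WT cells and 120.4, 102, 84 and 82.4 with NK1.1. With PGE2 the counts were 229.6, 193 and 172 at rest and 260.5, 239.8, 265 and 255 with NK1.1. The stimulated WT groups were far apart, and the PGE2 plus NK1.1 libraries lay above every library of the other WT groups. This site too was named for its WT PGE2 difference, so its WT order is a description. In KO cells, rest gave 202 ± 12.6 (SD, n = 3), NK1.1 112 ± 12.9 (n = 4) and NK1.1 plus PGE2 128 ± 21.5 (n = 4). A site in Med10, a subunit of the Mediator complex that links transcription factors to RNA polymerase (chr13:69813589-69814590, exonic in the deposited table), had 329.8, 298, 272 and 278 at rest, 216, 178, 152 and 174 with NK1.1 and 503, 444, 452 and 406 with PGE2 plus NK1.1 in WT cells. Its stimulated KO libraries had 174, 173, 143 and 153 and, with PGE2, 196, 250.3, 141 and 183, so that they overlapped each other and stayed below the resting KO range of 239 to 299 in all but 1 library. A distal site named Mapre1, after a protein that tracks growing microtubule ends (chr2:153733617-153734678), had a negative PGE2 difference at rest in WT cells, at -0.16, against 1.102 in stimulated cells.

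The intronic site in Nrp1, which codes for a co-receptor of semaphorins and vascular endothelial growth factor (chr8:128489101-128490190), had 132, 124, 108 and 133 at rest and 97.1, 82.7, 84 and 92 with NK1.1 in WT cells. With PGE2 it had 134, 133 and 126 at rest and 262, 264, 214 and 205 with NK1.1, and the last group lay above all other WT libraries. That excess is one of the reasons the site was named, so it is a description. In untreated KO cells it had 69.5, 82.2 and 74.4 at rest and 83.9, 125, 95.4 and 95.1 with NK1.1, a rise of 0.39 ± 0.14 (limma, adjusted p = 0.0249), so the stimulation difference was positive in KO cells and, by the means, negative in WT cells. An intronic site in Prkca, a protein kinase C gene, was the other that was lower with stimulation in WT by its mean (-0.25) and called higher in KO (0.69 ± 0.25; limma, adjusted p = 0.0209). Its KO counts were 24.2, 55 and 50.1 at rest and 45.6, 76.6, 80.9 and 66.8 with NK1.1, and these ranges overlapped. The difference between genotypes was not tested.

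Of the 491 sites, 11 had a positive stimulation difference in WT cells: Fars2, Setbp1, Gtpbp1, Tmem121, Aen, Myct1, Runx2, Map2k5, Agap1, Dera and Acsl4, which are named after their values were seen. The working name did not describe all of them either. The stimulation difference was only 0.0099 at Agap1, 0.019 at Runx2 and 0.030 at Dera. The PGE2 difference at rest ran from -0.30 to 0.38 among the 11. At Dera, PGE2 at rest gave 496, 455 and 487 in WT cells, above the untreated resting libraries at 412, 371, 405 and 318. In KO cells limma called 3 of the 11 sites higher with NK1.1 alone (Fars2, Setbp1 and Gtpbp1), a share of 27.3% that is near the 27.8% of all peaks. The Setbp1 site was near the floor at untreated rest, with a mean count of 5.61 in WT and 4.16 in KO libraries. Its PGE2 difference in stimulated WT cells was 0.97 ± 0.62 (SE). The site in an intron of Fars2, the mitochondrial phenylalanyl-tRNA synthetase gene (chr13:36392037-36393193), had low counts at rest, with 9.42, 13.6, 14.7 and 22.7 in untreated WT libraries. With NK1.1 the counts were 43.5, 33.9, 47.6 and 58.1, and with PGE2 plus NK1.1 they were 138, 115, 74.4 and 75.7. In KO cells NK1.1 gave 50.1, 48.3, 91 and 87 and NK1.1 plus PGE2 56.9, 49.1, 70.0 and 73.2, against 15.1, 14.6 and 10.6 at rest. The KO stimulation difference was 2.23 ± 0.32 (limma, adjusted p = 1.76e-06), while the KO PGE2 difference in stimulated cells had a 95% interval from -0.71 to 0.51. The intronic site in Gtpbp1, which codes for a GTP-binding protein (chr15:79695582-79696001), had 42.4, 36.9, 37.3 and 50.2 at rest, 71.8, 46.1, 62.6 and 68.5 with NK1.1 and 89.5, 118, 123 and 111 with PGE2 plus NK1.1 in WT cells.

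An exonic site in Aen, a nuclease gene induced by p53 (chr7:78908521-78909530), was level in 3 WT groups and high in the fourth. It had 166, 182, 167 and 141 at untreated rest and 192, 149 and 168 with PGE2 at rest. It had 180.1, 180.3, 163 and 163 with NK1.1 and 365, 342, 323 and 317 with PGE2 plus NK1.1. The last group stood clear of all other WT libraries. This site and the Tmem121 and Myct1 sites below were named for that excess, so nothing is read from their WT order. In stimulated KO cells the counts were 184, 183, 123 and 159 without PGE2 and 182, 211, 143 and 189.9 with it, and they overlapped. NK1.1 with PGE2 present raised the Aen site in KO cells, by 0.29 ± 0.12 (limma, adjusted p = 0.0446), although the ranges overlapped. A distal site named Tmem121, after a transmembrane protein gene (chr12:113264112-113265562), showed the same order, at 101, 128, 127 and 118, 104, 168 and 159, 158, 126, 110.2 and 118 and 336, 252, 326 and 276 in those 4 WT groups. In stimulated KO cells it had 125, 159.8, 159 and 152 without and 171, 212, 182 and 194 with PGE2, which did not overlap, at a difference of 0.35 with a 95% interval from 0.030 to 0.67 that was not called after adjustment. With PGE2, NK1.1 raised this site in KO cells from 98.2, 104, 161 and 129 to 171, 212, 182 and 194, by 0.65 ± 0.16 (limma, adjusted p = 0.001). An intronic site in Myct1 (chr10:5603277-5604156) was at 61.2 to 118, 98.1 to 139.8 and 105 to 115 in the first 3 WT groups and at 192 to 254 with PGE2 plus NK1.1. A site in an intron of Nfatc2, one of the calcium-dependent NFAT factors that NK1.1 signalling activates (chr2:168500400-168501390), had 239, 252, 313 and 258 at rest, 314, 267, 231 and 234 with NK1.1 and 525, 445, 425 and 473 with both in WT cells. Its KO libraries lay between 301 and 377 in all 4 groups, and no KO comparison called it.

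**Figure D4:**
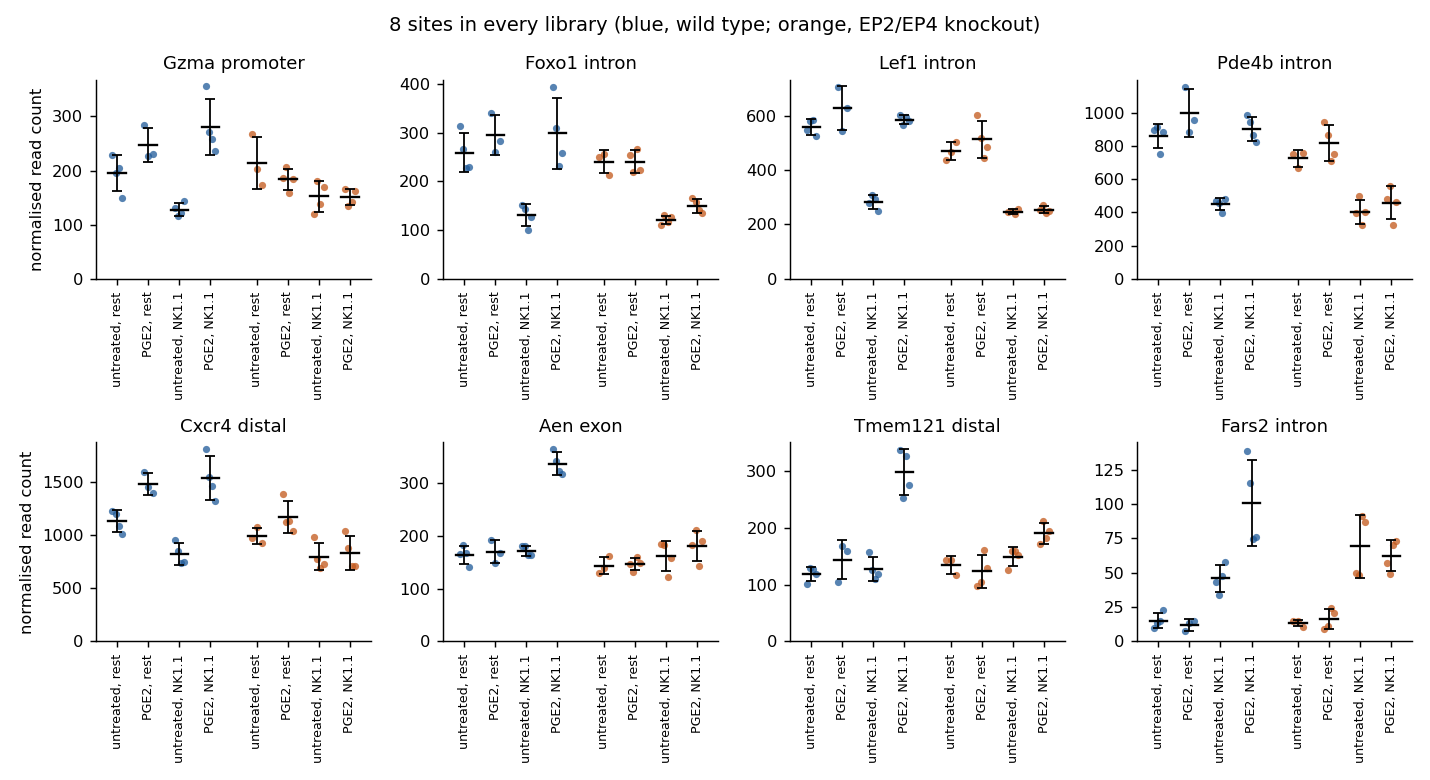
Normalised read count (y axis, from 0) of 8 of the sites in every library, WT in blue and KO in orange, with group means as lines and SD as bars. The Aen, Tmem121 and Fars2 sites were named for their high WT mean with PGE2 plus NK1.1, so their WT order is a description. At the Lef1, Pde4b, Foxo1, Gzma and Cxcr4 sites the PGE2 plus NK1.1 WT libraries sit near or above the resting level and the NK1.1-only libraries below it, while at the Aen and Tmem121 sites that group stands above every other WT group and at the Fars2 site both stimulated groups are above rest.

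The sites at Foxo1 and Lef1, transcription factor genes of lymphocytes, were lower with NK1.1 in WT cells and near their resting level when PGE2 was added. An intronic site in Foxo1, whose product keeps lymphocytes quiescent and is shut out of the nucleus by growth factor signals (chr3:52342869-52344197), had 312, 266, 228 and 229 at rest, 152, 142, 101 and 126 with NK1.1 and 394, 310.1, 230.3 and 258 with PGE2 plus NK1.1. The stimulated WT groups did not overlap, and the last group overlapped rest. In KO cells NK1.1 lowered it, at a log2 difference of -0.98 ± 0.16 (limma, adjusted p = 6.87e-06), from 251, 256 and 213 to 110.4, 129.8, 116 and 126, and the NK1.1 plus PGE2 libraries had 166, 157, 142 and 135. Its KO PGE2 difference of 0.31 had a 95% interval from 0.017 to 0.61 and was not called.

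Lef1 codes for a Wnt pathway factor of immature and memory-like lymphocytes, and it had an intronic and a distal site among the 491. The intronic one (chr3:131117437-131118560) had 548, 581, 583 and 523 at rest in WT cells and 277, 309, 294 and 247 with NK1.1. PGE2 plus NK1.1 gave 603, 564, 593 and 579.5, within or above the resting range. In KO cells NK1.1 took it from 437, 466 and 503 to 244, 248, 236 and 256, and with PGE2 from 602, 516, 445 and 485 to 253, 271, 243 and 249. Both falls passed the test, at -0.92 ± 0.10 (limma, adjusted p = 8.78e-09) and -1.0 ± 0.088 (adjusted p = 5.24e-10). The distal Lef1 site (chr3:130946685-130947778) also fell in untreated KO cells, with a log2 change of -1.11 (limma, adjusted p = 2e-08). Sites at the RUNX factor genes, which act throughout lymphocyte development, were not called in that comparison, at -0.064 for a distal Runx1 site, 0.22 for an intronic Runx2 site and -0.45 for an intronic Runx3 site.

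The lists of NK effector molecules and of inhibitory receptors held 1 and 2 of the sites. The peak classed as the promoter of Gzma, the granzyme A gene (chr13:113101592-113102235), is centred 932 bp from the RefSeq start of Gzma and overlaps the gene Cdc20b, so its assignment is uncertain. It had 229, 196, 204 and 149 at rest, 132, 115, 122 and 143 with NK1.1 and 356, 271, 258 and 236 with PGE2 plus NK1.1 in WT cells. In KO cells it fell from 267, 202 and 172 to 119, 181, 138 and 170.0 with NK1.1, with a log2 change of -0.48 ± 0.17 (limma, adjusted p = 0.0153), although the ranges overlapped. The KO PGE2 difference in stimulated cells had an interval from -0.31 to 0.32. The Cd96 intron site, at the gene of a receptor that competes for the same ligand as the activating receptor DNAM-1 (chr16:46107079-46108425), had 135, 119.5, 147 and 147 at rest, 94.1, 58.3, 62.6 and 87.6 with NK1.1 and 146, 155, 176 and 145 with PGE2 plus NK1.1. It fell in untreated KO cells, at a log2 difference of -0.65 (limma, adjusted p = 0.00641), while a distal site named Ctla4, after another inhibitory receptor, was at 0.16 and was not called.

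Of the 3 sites named Cxcr4, after the receptor for the retention chemokine CXCL12, the most accessible (chr1:128766455-128767820) had 1229.5, 1201, 1083 and 1009 at rest, 953, 848, 739 and 748 with NK1.1 and 1815, 1549.5, 1462 and 1323 with PGE2 plus NK1.1 in WT cells. With PGE2 at rest it had 1599, 1450.4 and 1393, above every untreated resting library, so this site was higher with PGE2 in both states and only just met the resting threshold, at 0.39. Its KO stimulation difference of -0.33 missed the threshold (limma, adjusted p = 0.0529), while the other Cxcr4 sites fell, at -0.73 and -0.86 (adjusted p = 0.00103 and 0.00395). These sites lie between 22709 and 174838 bp from the RefSeq start of Cxcr4. An exonic site in Il2rb, the receptor chain shared by IL-2 and IL-15 (chr15:78480896-78481820), had 313, 322, 325 and 373 at rest, 263, 248, 227 and 269.8 with NK1.1 and 545, 495, 425 and 385 with both in WT cells. It fell in untreated KO cells, at a log2 difference of -0.39 ± 0.11 (limma, adjusted p = 0.00525). A Jak1 intron site, at the gene of a kinase that this receptor uses, fell there too, at -1.16 (adjusted p = 1.51e-06).

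The cAMP pathway itself was represented by Pde4b, Prkacb and Crtc3, of which the first breaks cAMP down, the second is a catalytic subunit of protein kinase A and the last is a coactivator of CREB. The intronic Pde4b site (chr4:102516771-102519227) had 894, 912, 750.1 and 884 at rest and 465, 458, 397 and 479 with NK1.1 in WT cells. It had 1156, 882 and 955 with PGE2 at rest and 983, 942, 867 and 823 with PGE2 plus NK1.1. Stimulation without PGE2 separated it from the other 3 WT groups, which overlapped each other. In KO cells it fell with NK1.1 from 752, 665 and 756 to 393, 498, 322 and 403 (limma, adjusted p = 2.97e-05), and the NK1.1 plus PGE2 libraries had 481, 561, 322 and 461. An intronic Prkacb site and a distal site named Crtc3 fell in untreated KO cells, at log2 differences of -0.72 and -1.23 (limma, adjusted p = 1.25e-05 and 2.26e-07). In stimulated KO cells their PGE2 differences were 0.16 and 0.38, neither of which was called.

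The 9 gene lists, on cAMP signalling, inhibitory receptors, effector molecules, activation factors, cytokine receptors, transcription factors, tissue residency, migration and nutrient uptake, named 203 genes with 1474 peaks. Of these peaks 22 (1.49%) were among the 491, against 1.27% of all tested peaks, and they belonged to 19 genes. The migration list held 4 of its 121 peaks (3.31%), which were the 3 Cxcr4 sites and a distal site named Itgb1, after the integrin beta 1 chain. The inhibitory receptor list held the Cd96 and Ctla4 sites among 78 peaks (2.56%), the nutrient list 1 of 53 (1.89%), the cytokine receptor list 2 of 182 (1.1%) and the tissue residency list 1 of 136 (0.735%). The transcription factor list held 6 of 371 (1.62%), and the cAMP list 3 of 200 (1.5%). The list of cytokines, chemokines and cytotoxic molecules held only the Gzma site among 113 peaks (0.885%), and the list of NFAT, NF-kB and AP-1 factors held the Nfatc2 site and an Nfkb1 site among 228 (0.877%). In each of the 9 lists more peaks rose than fell with NK1.1 in untreated KO cells, so this was not particular to these last lists. In untreated KO cells NK1.1 raised 83 of the 113 effector peaks and lowered 9, at a median of 1.13, and it raised 143 of the 228 activation factor peaks and lowered 24, at a median of 0.65 (limma), while 27.8% of all peaks rose and 26.2% fell. In the cAMP list 66 of 200 rose and 57 fell, at a median of -0.088, and in the migration list 41 of 121 rose and 36 fell, at a median of -0.082. Of the inhibitory receptor peaks 35 rose and 14 fell (median 0.243), and of the cytokine receptor peaks 101 rose and 40 fell (median 0.407). The tissue residency list had 66 and 30 (median 0.359), the transcription factor list 129 and 98 (0.025) and the nutrient list 18 and 9 (0.152).

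The 6 smallest adjusted p-values for NK1.1 in untreated KO cells were at sites named Prss30, Rbm47, Rasgrf2, Ssbp2, Mnd1 and Gm19510. The Prss30 site, at a serine protease gene (chr17:23979966-23981065), is a promoter in the deposited classes but is centred 5285 bp from the RefSeq start of Prss30. It fell from 721, 681 and 721 to 265, 291, 331 and 372, at a log2 difference of -1.18 ± 0.10 (limma, adjusted p = 5.5e-10). Its WT libraries had 605, 662, 617 and 583 at rest, 262, 340.2, 302 and 340.1 with NK1.1 and 519.9, 509, 556 and 581 with both, so with PGE2 it stayed just below rest. The Rasgrf2 intron site, at the gene of an exchange factor for Ras (chr13:92094826-92096032), fell in KO cells from 903, 881 and 952 to 439, 484, 471 and 430.4, and with PGE2 from 942, 1008, 895 and 910.0 to 532, 529, 383 and 483. In WT cells it had 982, 957, 1003 and 1006 at rest, 525, 545, 491 and 489 with NK1.1 and 1212, 992, 1053 and 1068 with PGE2 plus NK1.1, the last overlapping rest. The site in an intron of the DNA repair enzyme gene Tdp1 (chr12:99941676-99943803) had 1593, 1762, 1656 and 1831, 895, 923, 785 and 901 and 1639, 1693, 1651 and 1540.4 in those WT groups. Its stimulated KO libraries had 739, 802, 621 and 779.9 without and 922, 933, 685 and 829 with PGE2, against 1407 to 1671 at rest. Intronic sites in Rbm47, an RNA-binding protein gene, and Ssbp2, a single-stranded DNA-binding protein gene, fell in untreated KO cells, at log2 differences of -1.19 and -0.90 (limma, adjusted p = 6.56e-10 and 2.5e-09). The intronic site in Mnd1, a gene of meiotic recombination, had lower counts and fell from 166, 177 and 149 to 55.9, 56.6, 78.8 and 70.2 (limma, adjusted p = 3.43e-09).

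The 491 sites were mostly intronic or distal. In the deposited classes, 257 (52.3%) were in introns against 33.0% of all peaks, 151 (30.8%) were distal against 27.2%, 61 (12.4%) were exonic against 8.55%, and 22 (4.48%) were at promoters against 31.3%. The low promoter share was not particular to them. Of the 604 peaks past the stimulation threshold, 5.13% were at promoters, 46.5% in introns, 37.6% distal and 10.8% exonic. The median distance from a site's centre to the nearest RefSeq gene start was 22650 bp (474 sites), against 10780 bp for all peaks, and 13 sites (2.65%) lay within 1 kb of a start against 26.4%. They were slightly narrower, at a median of 945 bp against 1066 bp, and slightly less accessible, with a median mean count of 131.3 against 168.9. Peaks classed as promoters included, besides those named Gzma, Jakmip1 and Prss30, that of Ifi204, an interferon-inducible DNA sensor, which fell in KO cells, with a log2 change of -0.80 (limma, adjusted p = 5.67e-08). The sites were assigned to 457 genes, of which 426 had 1 site, 28 had 2 and 3 had 3 (Cxcr4, 1700025G04Rik and 6030471H07Rik). The immunoglobulin heavy chain locus Igh (chr12:113258768-116009954 in RefSeq), which B cells rearrange, held 5 of the sites among 88 peaks, among them the one named Tmem121. This is 5.68%, against 1.27% of all tested peaks. No B cell marker promoter had a peak, and whether B cells had a part in these sites was not tested.

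**Figure D5:**
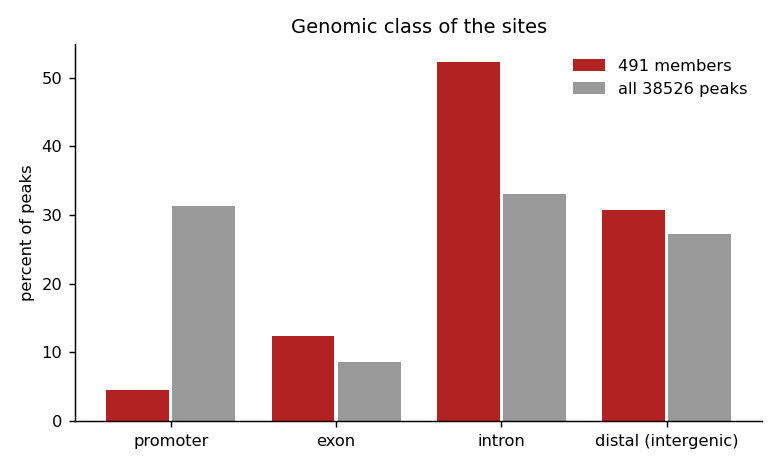
Percentage of peaks (y axis, from 0) in each deposited genomic class (x axis) for the 491 sites in red and all 38526 peaks in grey. Promoters make up 4.48% of the sites against 31.3% of all peaks, and introns 52.3% against 33.0%.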

How the data were processed

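Open chromatin of mouse splenic NK cells was read by ATAC-seq in 30 libraries, in 8 groups taken from the sample labels. The deposited table gives a normalised signal, the DESeq2-normalised read count of each library in 38526 merged peaks, with a gene and a genomic class per peak. The submitters' processing notes name Trimmomatic 0.39, Bowtie2 2.4.1, MACS2 2.2.7.1, DESeq2 and the build mm10, and the merging of peaks is not described there. The values came out as whole reads times a factor per library for 100% of values (within 0.05 read), with 8444350 to 20153816 reads in peaks per library.

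The sites, gene lists and alternatives were chosen with earlier results of these data known. Values were analysed as log2(normalised count + 1) at 38525 peaks with a mean of at least 10, and all 491 sites passed. The test was limma 3.58.1 (R 4.3.3) with 1 mean per group over all 30 libraries, empirical Bayes without a mean-variance trend and without robust fitting, two-sided, Benjamini-Hochberg adjusted over all tested peaks and called under 0.05. Only KO comparisons were tested, because the rule used all 4 WT groups. edgeR 4.0.16 and DESeq2 1.42.0 on the recovered reads, a replicate block, pseudocount 5, other filters and scalings, a mean-variance trend and leaving out each library were alternatives, and the scripts were tested on simulated data.

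Sites were named by these rules: the 10 with the largest PGE2 difference in stimulated WT cells, the 8 with the largest difference between that and the resting one, the 6 farthest above the other WT groups (each with a mean of at least 50 and no overlap), up to 3 per gene list, those nearest the thresholds, up to 6 called per KO comparison and direction, and genes with 3 sites or more. The text gives 20 sites and a few others library by library, picked after their values were seen, and adds 11 with a positive WT stimulation difference, the sites shown with sequences, and the Tdp1 (among the 20), Runx3, distal Lef1, Itgb1, Ifi204 and Col4a1 sites, which no rule named.

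Same-numbered libraries deviated together in the KO comparisons of PGE2 with NK1.1 (correlations 0.221 to 0.526), PGE2 at rest (0.116 to 0.328) and NK1.1 with PGE2 (0.132 to 0.368). Libraries of different numbers were not compared, so whether the numbers pair libraries was not tested, and the labels do not say what a number marks. Depth also went with the number in stimulated KO libraries. Numbers 1 and 2 held 8444350 to 9963815 reads in peaks, and numbers 3 and 4 held 14611688 to 20153816. For NK1.1 without PGE2 the lowest was 0.006. RefSeq tables (GRCm38.p6) gave gene starts, overlaps and promoter windows, and all 456 gene identifiers of the sites were found there. No genome sequence was used here, and conditioned medium treatments are not analysed here. A marker list and a peak just outside a threshold are not reported here.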

Additional observations from a re-analysis of the deposited data

Results flagged for a closer look

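Of the sites given library by library 20 were searched, with the median of the 491 sites in each library, for a library far from the rest of its group, and 2 were found. At the distal site named Gm20750, the PGE2-treated resting KO library 1 had a normalised read count of 189.4, below the other 3 libraries of its group. At the intronic Nfatc2 site, the stimulated KO library 1 without PGE2 had 320.9, below its 3 partners, a gap that is small beside the count. The measure compares the gap with the group's range, so groups whose other libraries lie close together are picked out by small gaps. Chance picks out about 1 group in 20, and over all 491 sites 120 of 2946 groups (4.07%) were picked out.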

How the results depend on the processing

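Of 315 values recomputed under alternatives, 302 kept their direction and side of the threshold and 1 reversed. The thresholds of the rule moved its size most, to 121 sites at a PGE2 threshold of 1, 228 at a resting threshold of 0.2 and 11 at a stimulation threshold of 0. Those 11 by construction had 0% lower with stimulation in WT, and they had 0% at promoters and a median KO stimulation difference of 0.219, the reversed value. Leaving out each WT library in turn gave 420 to 586 sites, of which 377 to 458 were among the 491. Group medians in place of means in the rule gave 493 sites, of which 348 were among the 491. Over the whole table, PGE2 in stimulated KO cells called 1 peak with DESeq2, 1 with a mean-variance trend in limma and 0 to 2 without 1 library (2 without PGE2 plus NK1.1 replicate 3). PGE2 in resting KO cells called 1 peak in a fit of KO libraries with the replicate block and 0 to 2 without 1 library (2 without PGE2 replicate 3). None of these fits called any of the 491 sites for PGE2. NK1.1 without PGE2 in KO cells called 3 of the sites higher at a minimum mean of 50 and 3 to 5 without 1 library (3 without NK1.1 replicate 2), and 332 to 359 lower. With the replicate number as a block, 382 sites were lower with NK1.1 alone and 364 with PGE2 present, PGE2 still called 0, and no other call changed. The mean-variance trend, chosen after seeing the data, gave 370 and 356. With 3 or 4 libraries a group and a median standard error of 0.155, smaller PGE2 differences in KO cells were not detectable.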
